A study of Mus musculus with 9 samples.

Results

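Genes of the enteric nervous system were followed in cultured mouse gut mesenchyme given Vehicle or one of the ligands Sonic hedgehog (Shh) and Indian hedgehog (Ihh). The set held 38 genes of enteric neural crest, neurons and glia, chosen by name, out of 18193 genes measured. They were represented by 84 probe sets (groups of short probes on an Affymetrix array) that the platform annotation ties to a single gene symbol, and 22 of the 38 genes had several. The tissue was small intestinal mesenchyme of C57Bl/6J mouse embryos at E18.5, with the epithelium taken off. It was grown on collagen for 48 h in medium with serum, then exposed for 24 h to Shh, to Ihh or to Vehicle, with 3 arrays for each. Each treatment had 6 wells, which were combined by chance into its 3 samples. A replicate is therefore a pool of wells, and p-values measure only the spread between such pools. The pools differed in embryo sex, as given below, and the rest of the spread may be technical. Wells held a mixture of cells, and in such bulk samples fewer cells of a type and less RNA per cell cannot be told apart. Neither the dose of ligand nor the content of the vehicle is stated in the labels.

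The enteric nervous system arises from neural crest cells that enter the gut wall and spread along it through the mesenchyme. They carry the receptor tyrosine kinase Ret with its co-receptor Gfra1, which bind the mesenchymal growth factor Gdnf, and the endothelin receptor Ednrb, which binds Edn3. Crest cells that keep Sox10 give rise to glia, while those that turn on Phox2a and the neuronal RNA-binding proteins become neurons that use acetylcholine, nitric oxide and peptides. Hedgehog ligands come from the gut epithelium and are received by the mesenchyme, within which the ganglia lie.

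Values were log2 expression levels, and levels of different probe sets are not comparable with each other. Array medians lay between 5.87 and 5.92, and 33 of the 38 genes lay above the median of all probe sets on every array. Nefl, Th and Cartpt lay below it on every array, Dcx lay above it on 4 arrays and Chat on 8, so differences of these genes may be understated, because low values are compressed towards background. The mesenchymal markers Col3a1 and Vim were bright on every array (13.14 to 13.43 and 12.97 to 13.10), as the tissue label says. Epithelial markers were also present and uneven, with Cdh1 between 4.71 on Vehicle 3 and 8.37 on Shh 3. The pools differed in embryo sex, since the male transcript Eif2s3y was near 3.2 on Shh 1 (3.24) and Shh 2 (3.17) and 6.24 to 8.98 on the other 7 arrays, while the female transcript Xist was at 6.34 to 6.48 on Shh 3, Vehicle 2 and Vehicle 3 and at 10.04 to 11.31 on the rest. The ligands acted in these cultures: the hedgehog receptor gene Ptch1 was at 9.06 to 9.25 with Vehicle, 10.35 to 10.88 with Shh and 10.49 to 10.98 with Ihh, and it rose in both cases by limma (adjusted p = 0.00298 and 0.00144). Of the 3 response genes Ptch1, Gli1 and Hhip, all 3 rose with both ligands together.

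The question was whether the ligands differ in their effect on the nervous system genes. No gene of the 38 passed the test between Shh and Ihh (limma with Benjamini-Hochberg adjustment over all genes, threshold 0.05), where 0.011% of all genes passed. The smallest adjusted p was 0.285. At an unadjusted p under 0.05 (the same limma test), 16 of the 38 were lower with Shh than with Ihh and 1 was higher, beside 5.97% and 7.17% of all genes. The median difference was -0.25 log2 over the 38 genes and 0.02 over all genes, and 30 of the 38 lay below 0, where 44.2% of all genes did. Many of these genes are transcribed in the same neurons, so they are not independent of each other. The differences were small, from -0.65 log2 for Dcx to 0.26 for Nefm, and for 36 of the 38 genes the 95% interval lay within a 2-fold change either way. The arrays of the ligands did not overlap for 6 genes lower with Shh (Gdnf, Fabp7, Uchl1, Tubb3, Mapt and Chat) and for Dbh, which was higher, beside 7.93% and 9.37% of all genes. The count of 16 depended on single arrays: it was 3 without Ihh 1, 3 without Ihh 2, 4 without Shh 1, 10 without Shh 3 and 21 without Ihh 3. Fits with an array left out also have less power. Without any single array the number below 0 stayed between 30 and 32.

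**Figure D1:**
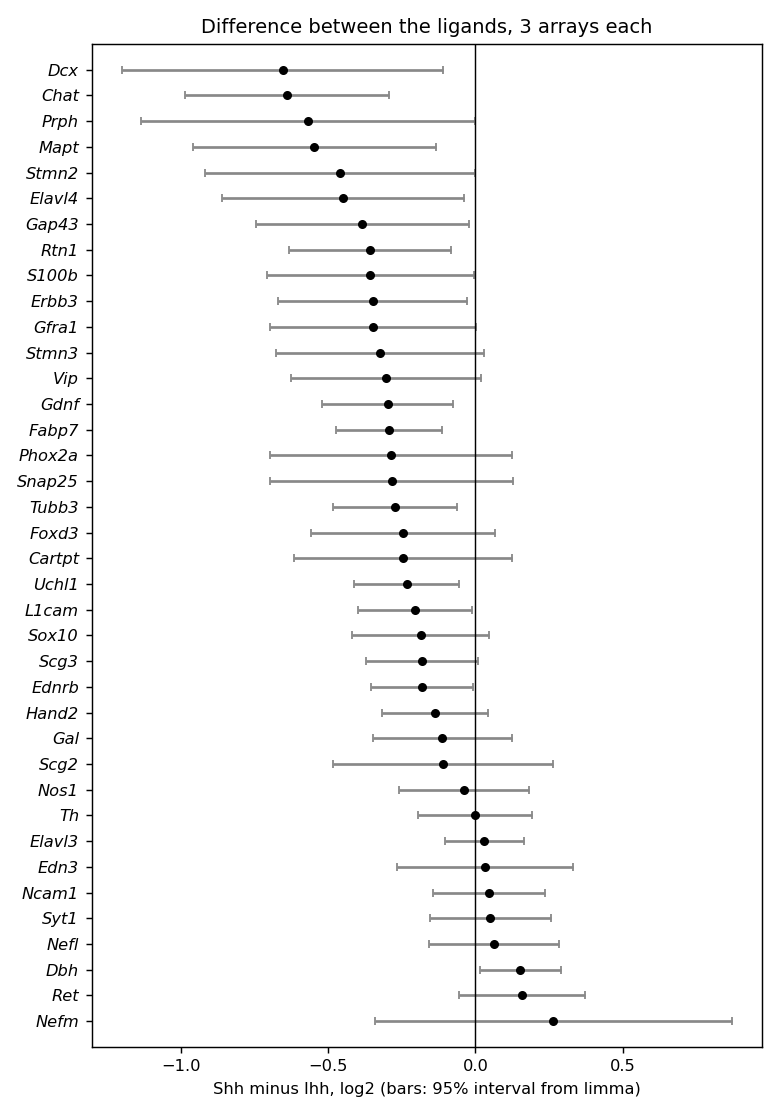
Difference between Shh and Ihh for each of the 38 genes (log2, 3 arrays each), with bars for the 95% interval from limma. Points run from 0.26 for Nefm to -0.65 for Dcx, 30 of 38 lie below 0, and none passed the test over all genes.

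The comparisons with Vehicle share the same 3 Vehicle arrays, so the values of each ligand are given side by side. With Shh, 0 of the 38 genes passed the limma test (1.73% of all genes did), 33 lay below Vehicle (46.1% of all genes), and at an unadjusted p under 0.05 13 were lower and 3 higher (10.7% and 8.06% of all genes). With Ihh, 0 of 38 passed (0.649% of all genes), 18 lay below Vehicle (54% of all genes), and unadjusted 0 were lower and 3 higher (5.63% and 3.56%). The same-numbered arrays of Ihh and Vehicle deviated together in all 3 pairs, and with the replicate number as a block on these arrays alone 0 of 38 passed (limma, 1.54% of all genes), with 4 lower and 6 higher unadjusted (8.74% and 5.68% of all genes). The 4 were Foxd3, Tubb3, Nefm and Gal, and the 6 were Gdnf, Ret, Fabp7, Mapt, Syt1 and Ncam1. The pairing was read from the same data, and wells were combined by chance, so these unadjusted counts are only descriptive. The number below Vehicle with Ihh, 18, was 11 without Ihh 3 and 27 without Vehicle 3. With both ligands together 0 of 38 passed (1.51% of all genes), 28 lay below Vehicle (49.5% of all genes), and unadjusted 7 were lower and 3 higher (8.41% and 5.25%). The arrays of Shh and Vehicle did not overlap for 8 genes lower with Shh and 4 higher (11.4% and 9.56% of all genes), and those of Ihh and Vehicle for 0 lower and 3 higher (8.15% and 5.67%). With both ligands together the arrays did not overlap for 0 genes lower (3.8% of all genes) and 2 higher (2.67%). The median difference from Vehicle was -0.23 log2 with Shh and 0.02 with Ihh, against 0.01 and -0.01 over all genes. The count of 13 lower genes with Shh was 7 without Shh 1, 7 without Vehicle 1, 6 without Vehicle 2 and 21 without Vehicle 3, and that of 7 for both ligands was 2 without Vehicle 1, 2 without Vehicle 2 and 13 without Vehicle 3. Several genes stood near the threshold for Shh against Vehicle and passed it under other settings.

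**Figure D2:**
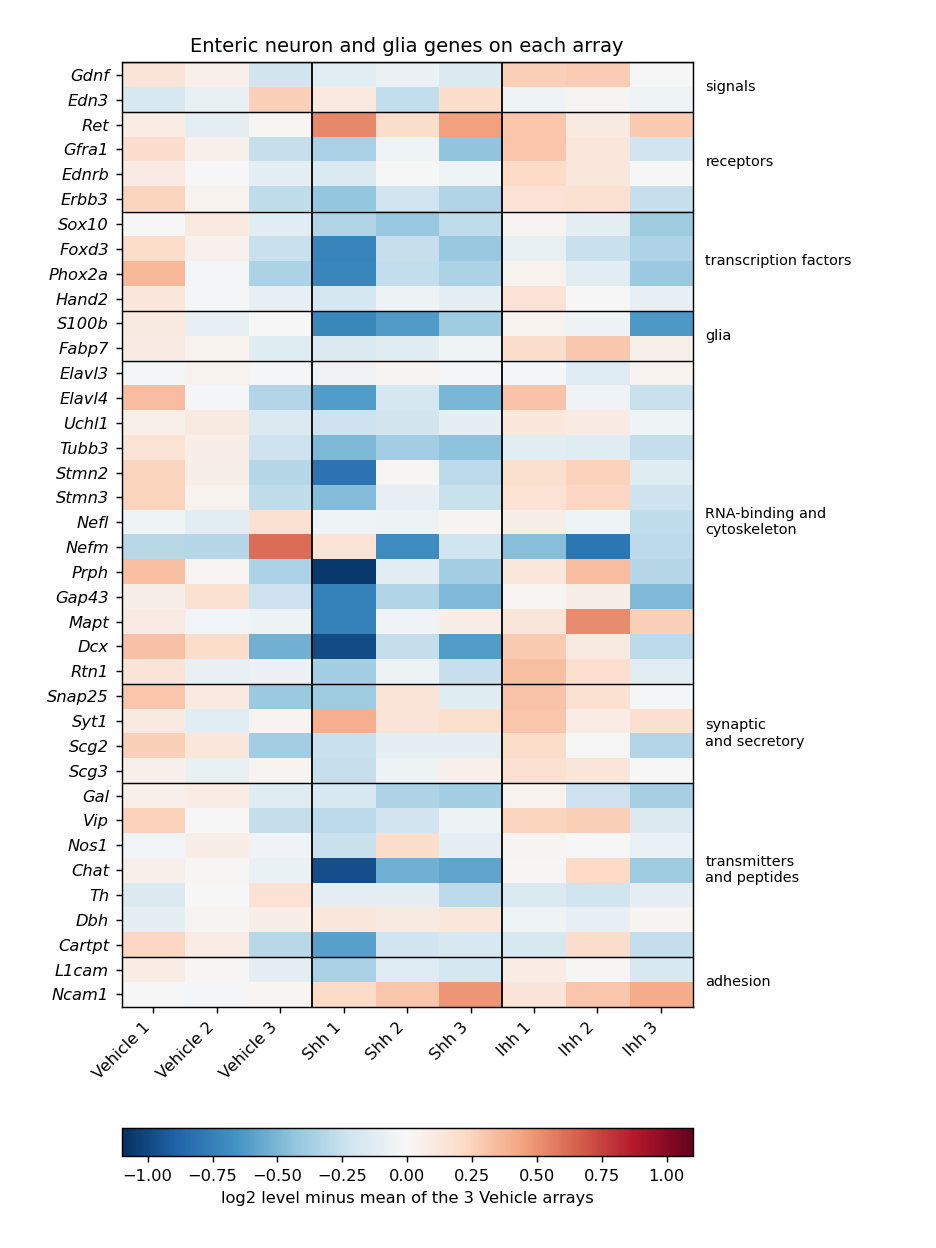
Level of each of the 38 genes on each array, as log2 minus the mean of the 3 Vehicle arrays (red higher, blue lower), with genes in rows by role and arrays in columns by treatment. Most neuronal rows are blue on the Shh arrays, deepest on Shh 1, and pale or red on Ihh 1 and Ihh 2, while Ihh 3 and Vehicle 3 are bluer than the other arrays of their groups.

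Among the signals, Gdnf, the mesenchymal growth factor that draws crest cells into the gut and keeps them alive, lay at 7.68, 7.60 and 7.34 on the Vehicle arrays, 7.41, 7.47 and 7.38 with Shh and 7.80, 7.81 and 7.54 with Ihh. All Ihh arrays lay above all Shh arrays, and the Vehicle arrays (7.34 to 7.68) ran from below the Shh arrays to within the Ihh range, with Ihh 1 and Ihh 2 above all of them. The difference of Shh from Ihh was -0.30 ± 0.10 log2 (SE; limma adjusted p = 0.312), and the differences from Vehicle were -0.12 with Shh and 0.18 with Ihh (adjusted p = 0.565 and 0.673). Edn3, the endothelin that keeps crest cells in a dividing, undifferentiated state, lay between 6.02 and 6.55 on all arrays, with a ligand difference of 0.03 (95% interval -0.27 to 0.33).

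Of the receptors, Ret, which binds Gdnf together with Gfra1, lay higher with either ligand than with Vehicle. Ret was at 8.04, 7.85 and 7.97 with Vehicle, 8.48, 8.14 and 8.40 with Shh, and 8.26, 8.05 and 8.24 with Ihh. Every array of either ligand lay above every Vehicle array, and the arrays of the ligands overlapped. The difference from Vehicle was 0.39 ± 0.10 log2 with Shh (1.31-fold, adjusted p = 0.0759) and 0.23 ± 0.10 with Ihh (adjusted p = 0.487), both short of the threshold. In Shh against Vehicle Ret passed after another quantile normalization (adjusted p = 0.0477), as the mean of its probe sets (0.0472), with array weights (0.0266) and without Shh 2 (0.049). The other probe set of Ret, at a mean of 6.78, differed by 0.23 with Shh and by 0.02 with Ihh.

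Ednrb, the receptor for Edn3, was at 12.23, 12.15 and 12.04 with Vehicle, 11.98, 12.15 and 12.09 with Shh and 12.36, 12.27 and 12.14 with Ihh. The groups overlapped, and the ligands differed by -0.18 ± 0.08 (adjusted p = 0.373). Its probe sets disagreed, since a second one (mean 9.80) showed no ligand difference (0.00) and lay 0.32 above Vehicle with Shh. Erbb3, the neuregulin receptor of glia and their precursors, differed between Shh and Ihh by -0.35 ± 0.14 (adjusted p = 0.364). A second, dim probe set of Erbb3 (mean 4.63) differed by 0.11. The Ret co-receptor Gfra1 differed between the ligands by -0.35 ± 0.16 (adjusted p = 0.381). Without Ihh 1 the difference of Gfra1 was -0.23. Its other probe sets lay above Vehicle with Shh (0.07 and 0.24) where the brightest lay below (-0.28), so no direction against Vehicle can be given for this gene.

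All 4 transcription factors lay lower with Shh than with Vehicle, 0 of 4 past the limma threshold and 3 of 4 at an unadjusted p under 0.05. Foxd3, which holds crest cells in a progenitor state, had means of 7.86 with Vehicle, 7.39 with Shh and 7.63 with Ihh. Its difference from Vehicle was -0.47 ± 0.14 log2 with Shh (adjusted p = 0.12) and -0.22 with Ihh (adjusted p = 0.73). It passed for Shh with array weights (adjusted p = 0.0418) and without Vehicle 3 (0.0464). Sox10, the defining factor of crest and enteric glia, differed from Vehicle by -0.34 ± 0.10 with Shh (adjusted p = 0.125), and all its Shh arrays lay below all Vehicle arrays. Phox2a, a homeodomain factor of autonomic neurons, differed by -0.45 ± 0.18 (adjusted p = 0.231) with overlapping arrays, and by -0.27 without Vehicle 1. Hand2, a helix-loop-helix factor needed for enteric neurons that the gut mesenchyme also makes, was at 11.12, 10.99 and 10.91 with Vehicle, 10.82, 10.95 and 10.91 with Shh and 11.17, 11.001 and 10.92 with Ihh. On this probe set its arrays overlapped throughout. A dimmer probe set of Hand2 (mean 6.23) disagreed against Vehicle: all 6 treated arrays (5.92 to 6.28) lay below all Vehicle arrays (6.39 to 6.68), with differences of -0.46 for Shh and -0.37 for Ihh, so no size against Vehicle can be given for this gene. On the brightest probe sets the ligand difference of all 4 factors was between -0.29 and -0.14.

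The glial proteins were S100b and Fabp7, both lower with Shh than with Ihh at an unadjusted p under 0.05 and neither past the limma threshold. S100b, a calcium-binding protein of mature glia, was at 7.66, 7.47 and 7.56 with Vehicle, 6.85, 6.94 and 7.17 with Shh and 7.60, 7.50 and 6.93 with Ihh. All Shh arrays lay below Vehicle, and of the Ihh arrays only Ihh 3 did. The difference of Shh from Vehicle was -0.58 ± 0.16 log2 (1.49-fold lower, adjusted p = 0.1). Its second probe set, of nearly the same mean (7.27), differed by -0.71 and was the one probe set of the 84 to pass when all probe sets were tested singly (adjusted p = 0.0481). S100b also passed in the fit on the Shh and Vehicle arrays alone (adjusted p = 0.0411) and in that without Ihh 3 (0.0181).

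Fabp7, the lipid-binding protein of crest-derived and radial glia, was at 10.44, 10.39 and 10.21 with Vehicle, 10.18, 10.21 and 10.30 with Shh and 10.53, 10.64 and 10.40 with Ihh. Here the Shh arrays lay within or just below the Vehicle range, and the Ihh arrays lay above all Shh arrays. The ligands differed by -0.29 ± 0.08 log2 (1.23-fold lower with Shh, 95% interval -0.47 to -0.11, adjusted p = 0.29), while Ihh lay 0.18 above Vehicle (adjusted p = 0.534) and Shh 0.11 below (adjusted p = 0.493).

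The pan-neuronal genes, which code for RNA-binding, cytoskeletal and axonal proteins, were the largest group. Of these 13 genes, 10 lay lower with Shh than with Ihh, 9 at an unadjusted p under 0.05 and 0 past the adjusted threshold of limma, with a median of -0.36 log2. Against Vehicle all 13 lay lower with Shh on the probe sets used (median -0.27), with Elavl3 at only -0.01 and Nefl at -0.02. With Ihh 5 lay lower and 8 higher (median 0.04). Over all 38 genes, 17 of the 46 other probe sets had the opposite sign for Shh against Vehicle, and 15 between the ligands. Of the 21 of these above the median of all values, 6 and 4 did. Tubb3, the neuronal beta-tubulin, was at 8.37, 8.29 and 7.99 with Vehicle, 7.72, 7.83 and 7.77 with Shh and 8.10, 8.09 and 7.95 with Ihh. The Shh arrays were the lowest 3 of all 9. Tubb3 was nearest of the 38 genes to the threshold, at -0.44 ± 0.09 log2 for Shh against Vehicle (1.36-fold lower, adjusted p = 0.0508), and it passed in 8 of the other settings, with an adjusted p between 0.00496 without Vehicle 3 and 0.0497 without less specific probe sets. Between the ligands it differed by -0.27 ± 0.09 (adjusted p = 0.316).

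Uchl1, the neuronal ubiquitin hydrolase also called PGP9.5, was at 9.15, 9.19 and 8.93 with Vehicle, 8.86, 8.88 and 8.98 with Shh and 9.21, 9.18 and 9.04 with Ihh. The arrays of the ligands were apart by a small gap, with a difference of -0.23 ± 0.08 log2 (adjusted p = 0.314). Mapt, the microtubule-associated protein tau, was at 8.40, 8.28 and 8.25 with Vehicle, 7.57, 8.27 and 8.38 with Shh and 8.45, 8.83 and 8.58 with Ihh. Shh 1 stood far below the other arrays, and the ligand difference of -0.55 ± 0.19 (adjusted p = 0.312) was -0.29 without it. A second probe set of Mapt (mean 7.06) differed by only -0.06.

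Other genes of the axon and its growth also lay lowest on average with Shh. Dcx, which binds microtubules in young neurons, had the widest ligand difference of the 38 on the probe sets used (-0.65 ± 0.24, 1.57-fold lower with Shh, adjusted p = 0.33), and Prph, the intermediate filament of peripheral neurons, differed by -0.57 ± 0.25 (adjusted p = 0.38). These values rested on the brightest probe set and, for Prph, on 1 array: without Shh 1 Prph differed by -0.30, and the other, dim probe sets differed by 0.10, 0.22 and 0.15 for Prph and by -0.24, -0.09 and 0.19 for Dcx. Averaged over all probe sets of each gene, the difference was -0.02 for Prph and -0.20 for Dcx. The RNA-binding protein Elavl4 differed by -0.45, -0.34 and -0.40 in its 3 probe sets, and the tubulin regulator Stmn2 by -0.46 and -0.47 in its 2, of which the first was -0.24 without Shh 1. Gap43, a protein of growing axons, lay at 8.72 to 9.14 with Shh, below all Vehicle arrays (9.24 to 9.63), with a difference from Vehicle of -0.52 ± 0.16 (adjusted p = 0.133). Nefm, a subunit of neurofilaments, ran against the rest of the group, with its highest value on Vehicle 3 (9.65) and its next highest on Shh 1 (9.19), arrays on which most of the other genes were low. Nefl, the other neurofilament subunit among these 13 genes, and the RNA-binding protein Elavl3 differed between the ligands by 0.06 and 0.03.

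Genes of vesicle release and secretory granules lay close together. Between the ligands 0 of 4 reached even an unadjusted p under 0.05 (limma, 0 of 4 adjusted), with differences of -0.28 for the fusion protein Snap25, -0.18 and -0.11 for the granule proteins Scg3 and Scg2 and 0.05 for Syt1, the calcium sensor of release. Syt1 was higher than Vehicle with Shh by 0.24 ± 0.09 log2 (adjusted p = 0.203) and with Ihh by 0.19 ± 0.09 (adjusted p = 0.6). As the mean of its 4 probe sets it passed for Shh (0.28, adjusted p = 0.0329) and for both ligands together (0.26, adjusted p = 0.0225).

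Of the transmitter and peptide genes, Chat, which makes acetylcholine, had the smallest p between the ligands of all 38 genes. Chat was at 6.59, 6.55 and 6.46 with Vehicle, 5.56, 6.00 and 5.95 with Shh and 6.54, 6.75 and 6.13 with Ihh. The Shh arrays lay below all arrays of the other groups. Shh differed from Ihh by -0.64 ± 0.16 log2 (1.56-fold lower, 95% interval -0.99 to -0.29, adjusted p = 0.285) and from Vehicle by -0.69 ± 0.16 (1.62-fold lower, adjusted p = 0.0582), while Ihh differed from Vehicle by -0.05 (95% interval -0.40 to 0.29). For Shh against Vehicle it passed in 5 other settings that kept the Shh and Vehicle arrays (adjusted p = 0.0349 to 0.0464) and without Ihh 3 (0.0225). Without Shh 1 its difference from Ihh was -0.50.

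Slc18a3, the vesicular acetylcholine transporter, is no gene of the set and was picked after its values were seen, because in RefSeq its gene lies within that of Chat. It was at 7.24, 7.32 and 6.89 with Vehicle, 4.85, 6.20 and 6.15 with Shh and 7.25, 7.29 and 6.59 with Ihh. As with Chat, the Shh arrays were the lowest 3 and Shh 1 the lowest of all, and Ihh 3 was the lowest of its group. The ligands differed by -1.31 ± 0.33 log2 (2.48-fold lower with Shh, adjusted p = 0.285), which was -0.87 without Shh 1, and Shh differed from Vehicle by -1.42 ± 0.33 (adjusted p = 0.0667).

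The transcripts of these neighbours, and of Dcx, were lowest on Shh 1, which holds for 23 of the 38 genes and is not particular to them. Chosen for that low value, the promoter windows of all 3 are shown. Each is the 250 bases before the start of transcription from RefSeq (GRCm38.p6), read 5′ to 3′ on the gene's own strand, with matches to the motifs searched in capitals. The window of Chat is chr14:32465910-32466159 on the minus strand, that of Slc18a3 is chr14:32464851-32465100 on the minus strand, and that of the first of 2 overlapping Dcx windows is chrX:143933220-143933469 on the minus strand. The other Dcx window holds the same homeodomain core and a SOX core, and is not printed.
Chat: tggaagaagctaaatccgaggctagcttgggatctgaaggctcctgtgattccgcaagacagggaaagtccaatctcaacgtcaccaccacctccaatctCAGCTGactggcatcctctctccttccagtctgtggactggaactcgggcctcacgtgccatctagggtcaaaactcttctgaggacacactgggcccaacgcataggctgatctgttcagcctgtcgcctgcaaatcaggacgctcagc
Slc18a3: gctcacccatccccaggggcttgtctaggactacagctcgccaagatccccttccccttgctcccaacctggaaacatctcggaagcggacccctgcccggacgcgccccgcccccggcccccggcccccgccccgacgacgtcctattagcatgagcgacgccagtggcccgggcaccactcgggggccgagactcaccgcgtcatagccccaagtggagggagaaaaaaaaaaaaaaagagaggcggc
Dcx: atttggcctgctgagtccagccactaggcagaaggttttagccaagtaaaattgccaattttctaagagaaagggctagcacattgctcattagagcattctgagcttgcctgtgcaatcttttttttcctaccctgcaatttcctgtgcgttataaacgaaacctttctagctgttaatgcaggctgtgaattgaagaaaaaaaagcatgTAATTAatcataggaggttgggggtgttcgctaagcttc
The capitals in Chat are an E-box (CAGCTG, a site type of helix-loop-helix factors) and those in Dcx a homeodomain core (TAATTA). Windows were found for 28 of the 38 genes, 37 in all because some genes have several starts, and both strands were searched. The E-box lay in 18.9% of these 37 windows and in 13% of all 32851 windows of this length, and the homeodomain core in 13.5% and 4.84%. Windows of 1 gene can overlap and share a match, as those of Dcx do. By gene, the E-box was in 6 of 28 (14.7% of all genes with a window) and the homeodomain core in 3 of 28 (5.65%). The SOX core ACAAAG lay in 13.5% and 16.5% of windows. The hedgehog effector motif of GLI factors (GACCACCCA) lay in 0 of the 37 windows and in 0.225% of all windows. The motifs do not overlap each other in the windows printed, and a match is only a match of letters.

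The other transmitter genes differed less. The neuropeptide gene Gal differed from Vehicle with Shh by -0.30 ± 0.11 log2 (adjusted p = 0.177), and Vip, a peptide of inhibitory motor and secretomotor neurons, differed between the ligands by -0.30 (adjusted p = 0.396). Nos1, which makes nitric oxide, differed between the ligands by -0.04 (95% interval -0.26 to 0.18) and between Shh and Vehicle by -0.05. A second probe set of Nos1 (mean 7.16) differed more, by -0.21 and -0.30. Its dim probe sets differed between the ligands by 0.03 and 0.125, so no size can be given for this gene. Dbh, the enzyme that makes noradrenaline, was higher with Shh than with Ihh by 0.15 ± 0.06 (adjusted p = 0.355), measured by a probe set of lower specificity. Its other probe sets, of means 5.10 and 5.08, differed by 0.21 and -0.02. Th, which makes the precursor of dopamine, differed by 0.00 and lay below the array medians. Cartpt, a peptide of some enteric neurons and the dimmest of the set, was at 5.31, 5.16 and 4.77 with Vehicle, 4.49, 4.87 and 4.91 with Shh and 4.91, 5.27 and 4.82 with Ihh. Its arrays overlapped in every comparison.

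Of the adhesion molecules, Ncam1, which the mesenchyme and muscle precursors carry as well as neurons, was at 9.89, 9.87 and 9.91 with Vehicle, 10.10, 10.19 and 10.37 with Shh and 10.03, 10.20 and 10.30 with Ihh. All 6 treated arrays lay above all Vehicle arrays, which Ncam1 and Ret alone of the 38 genes did (2.67% of all genes did so). The difference was 0.31 ± 0.07 log2 for both ligands together (1.24-fold, limma adjusted p = 0.0787), 0.33 ± 0.09 with Shh (adjusted p = 0.0839) and 0.29 ± 0.09 with Ihh (adjusted p = 0.257), and the ligands differed by 0.05 (95% interval -0.14 to 0.24). It passed with array weights for Shh (0.0301) and for Ihh (0.0458). For both ligands it passed with a trended variance (0.0463), with array weights (0.0137) and without Ihh 1 (0.0493). L1cam, an adhesion molecule that migrating crest cells and axons use, differed between Shh and Vehicle by -0.23 ± 0.09 (adjusted p = 0.194) and between Shh and Ihh by -0.20 ± 0.09 (adjusted p = 0.37).

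**Figure D3:**
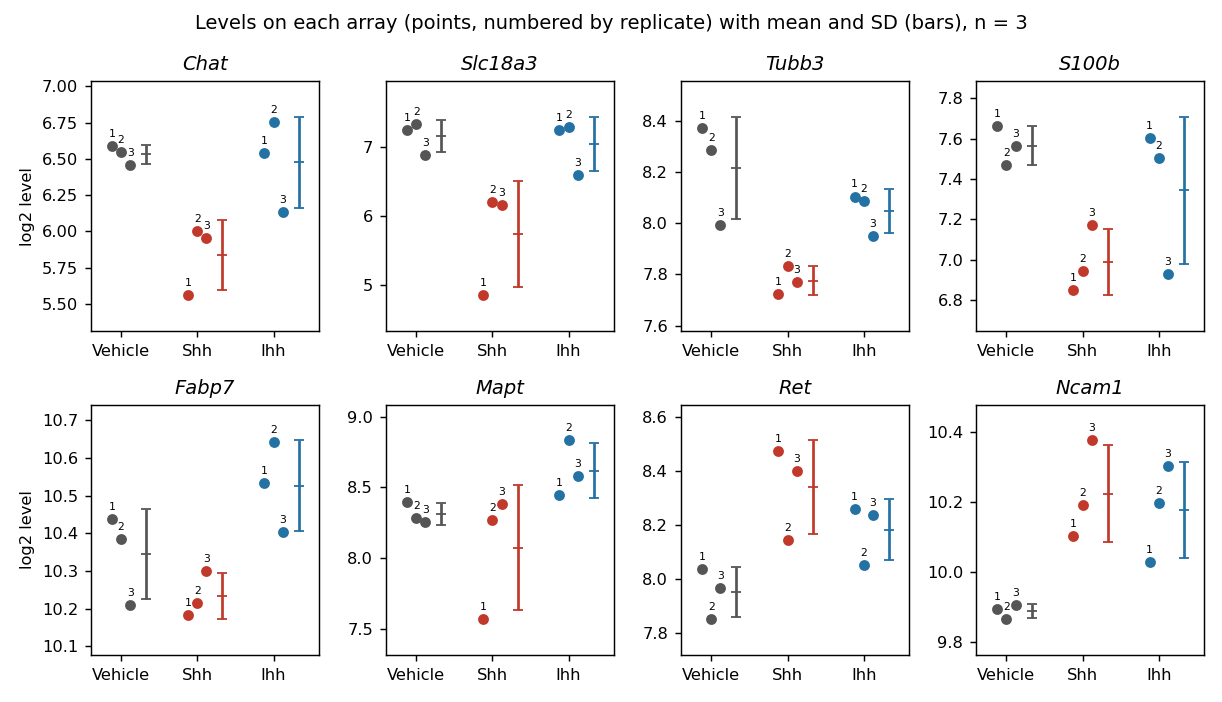
Levels (log2, own axis in each panel) of 7 genes of the set and of Slc18a3 on each array, numbered by replicate, with the mean and SD of the 3 arrays of each group. The Shh arrays of Chat, Slc18a3 and Tubb3 lie below all other arrays, and all arrays of either ligand lie above Vehicle for Ret and Ncam1.

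The genes also varied together within each treatment. Within the Vehicle group Vehicle 3 was the lowest array for 26 of the 38 genes (32.5% of all genes), within Ihh it was Ihh 3 for 29 (37% of all genes), and within Shh it was Shh 1 for 27 (30% of all genes). Shh 1 was the lowest of all 9 arrays for 23 of the 38 (10.2% of all genes). The mean over the 38 genes, relative to Vehicle, was 0.11, 0.01 and -0.12 on the Vehicle arrays, -0.33, -0.14 and -0.17 with Shh and 0.10, 0.05 and -0.15 with Ihh. All Shh arrays were below all Vehicle arrays by this mean, and Ihh 3 lay among the Shh arrays.

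Markers of other cells were set beside this pattern. The mean of 10 endothelial genes, relative to Vehicle, was -0.13 to 0.07 on the Vehicle arrays, -0.43 to -0.36 with Shh and 0.01, -0.16 and -0.39 with Ihh, with Cdh5 and Flt1 past the threshold for Shh against Vehicle (limma adjusted p = 0.0464 and 0.0244). Ihh 3 was thus the lowest Ihh array for endothelial genes too. Of the 6 markers of interstitial cells of Cajal, the pacemaker cells of gut muscle, 3 were measured, and the receptor Kit was at 9.50, 9.51 and 8.91 with Vehicle, 8.50, 9.07 and 8.67 with Shh and 9.46, 9.15 and 8.90 with Ihh. Ano1 and Prkcq did not follow Kit, with means of 7.11 and 6.44 with Vehicle, 7.05 and 6.57 with Shh and 7.24 and 6.42 with Ihh. The mean of the 3 genes overlapped between groups. It was 0.15, 0.05 and -0.205 on the Vehicle arrays, -0.30, 0.04 and -0.23 with Shh and 0.24, -0.06 and -0.21 with Ihh. The mean of the 10 epithelial genes was 0.99, 0.05 and -1.05 on the Vehicle arrays, 0.11, -1.04 and 0.98 with Shh and 0.68, 0.79 and -0.34 with Ihh. Vehicle 3 and Ihh 3 were thus lowest in their groups for epithelial genes as for the nervous system genes, while among the Shh arrays Shh 2 and not Shh 1 was lowest. The mean of the 6 mesothelial genes was 0.51, -0.05 and -0.46 on the Vehicle arrays, 0.08, -0.48 and 0.34 with Shh and 0.30, 0.22 and -0.26 with Ihh, with the same arrays lowest as for the epithelium. Krt19, which varied widely, is in both lists, so the epithelial and mesothelial means are not independent. The mean of the 10 smooth muscle genes ran from -0.12 on Vehicle 1 and Ihh 1 to 0.39 on Shh 1, and that of the 12 mesenchymal genes from -0.19 on Shh 3 to 0.07 on Vehicle 2. Of 12 macrophage and leukocyte genes, 2 rose (Laptm5 and Cx3cr1) and 4 fell (Adgre1, Itgam, Cd14 and Lyz2) with both ligands together. The mesothelial genes had 0 of 6 past the threshold in any comparison (limma; 1 of 6 lower at an unadjusted p under 0.05 with Shh and with both ligands against Vehicle). Of the smooth muscle genes Myocd alone rose past the threshold, with Ihh and with both ligands together. With Shh 0 of the 10 passed (smallest limma adjusted p = 0.0561). All Shh arrays of Myocd (6.565 to 7.417) still lay above all its Vehicle arrays (5.912 to 5.968). The part of these cells, or of embryo sex, in the values of the nervous system genes was not tested.

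**Figure D4:**
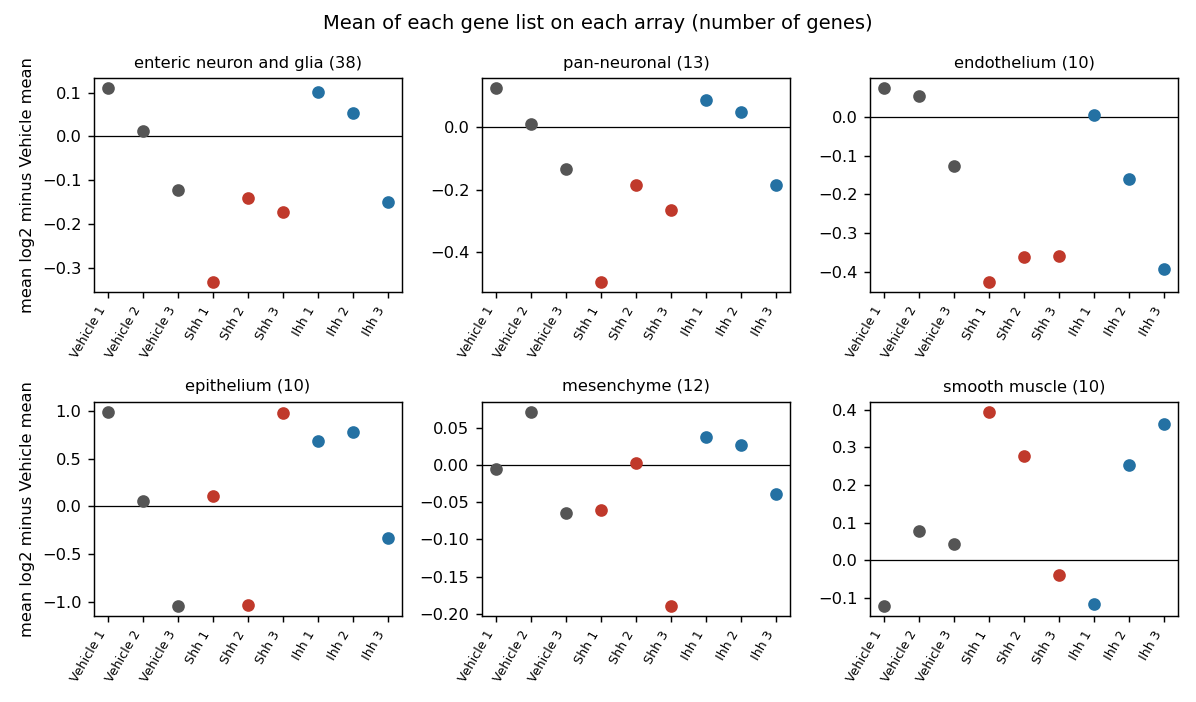
Mean log2 level of 6 gene lists on each array relative to the Vehicle mean (points coloured by treatment, own axis in each panel). The nervous system and endothelial means are lowest on the Shh arrays and Ihh 3, while the epithelial mean is highest on Vehicle 1 and Shh 3.

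Further genes of the same system, listed apart from the 38, gave 1 call in each list. Of 35 other genes of the crest pathways 31 were measured, and of these 0 rose and 1 fell with Shh against Vehicle, 0 passed with Ihh, and 0 passed between the ligands (limma; 5 higher and 3 lower unadjusted), with a median ligand difference of 0.04 log2. The gene that fell was Artn, a relative of Gdnf, at 6.03, 6.08 and 5.74 with Vehicle, 5.43, 5.35 and 5.41 with Shh and 5.76, 5.69 and 5.54 with Ihh. Artn is dim: it lay below the array median on Vehicle 3 and on every Shh and Ihh array. All Shh arrays lay below every Vehicle array, with a difference of -0.55 ± 0.09 log2 (adjusted p = 0.0227), and also fell with both ligands together (-0.42 ± 0.08, adjusted p = 0.0363). The call for Shh ended without any Shh array, without Vehicle 1 or without Vehicle 2, at up to 0.0957, and that for both ligands also ended without Ihh 2 or Ihh 3, at up to 0.174.

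Of 38 other neuron and glia genes 35 were measured, with 24 lower with Shh than with Ihh (median -0.11), 0 past the threshold between the ligands (limma; 1 higher and 7 lower unadjusted) and 1 that fell with Shh against Vehicle. That gene was Tac1, the precursor of substance P, an excitatory peptide. Tac1 was at 8.57, 8.38 and 8.71 with Vehicle, 6.66, 6.35 and 7.30 with Shh and 7.57, 7.46 and 6.13 with Ihh. All 6 treated arrays lay below Vehicle, with a wide spread within each ligand. The difference was -1.78 ± 0.35 log2 with Shh (3.44-fold lower, adjusted p = 0.0386) and -1.64 ± 0.30 with both ligands (adjusted p = 0.0323), the difference with Ihh was -1.50 ± 0.35 (adjusted p = 0.125), and the ligands differed by -0.28 (95% interval -1.07 to 0.50), from -0.74 without Ihh 3 to -0.02 without Ihh 1. As the mean of its probe sets the difference with Shh was -0.85 (adjusted p = 0.0601). The call for Shh ended without Ihh 2, Shh 1, Shh 2 or any Vehicle array, at up to 0.134, and that for both ligands without Shh 1, Shh 2 or any Vehicle array, at up to 0.129.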

How the data were processed

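Expression was measured on 9 Affymetrix arrays of biotin-labelled cRNA from 6 ug of total RNA, 3 each for Vehicle, Shh and Ihh. The deposited values were log2 levels of 45101 probe sets, which per the submitters' processing notes came from GCOS and RMA (background correction, normalization between arrays and summary per probe set). No versions are recorded in these notes, and the log2 scale was read from the range (2.78 to 14.20). After this normalization a change common to all genes is invisible. The number of arrays limits the precision.

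For each gene the brightest probe set, by its mean on the 9 arrays, was used among those with 1 symbol (34945 probe sets, 18193 genes; 932 probe sets with several symbols and 64 controls were left out). All 38 symbols are held by a RefSeq gene table. The 3 groups were fitted in one model on every array (lmFit, then eBayes, limma 3.58.1, R 4.3.3; 6 residual and 3.88 prior degrees of freedom), with 4 two-sided comparisons and Benjamini-Hochberg adjustment over all genes, threshold 0.05. All p-values are limma's. The script was tested on simulated data. Members and lists were chosen with earlier results of these data known. Values on every array were given for the 5 genes with the smallest p between the ligands, the 3 in each other comparison, the 3 brightest and the dimmest. S100b, Slc18a3, Artn, Tac1 and Kit were added, of which Artn and Tac1 as list genes past the threshold and the others after their values were seen. Promoter motifs were also chosen then. The main fit paired no arrays, and the values given per gene for Ihh against Vehicle come from it. In a separate fit the replicate numbers of Ihh and Vehicle, but not those of Shh, were taken as paired. The reason was that the deviations of all 3 same-numbered pairs correlated above 0.1 (r = 0.226 to 0.543). Differently numbered pairs of these groups ran from -0.478 to 0.218, and Ihh 3 with Shh 1 reached 0.288. Wells were combined by chance, so the numbers need not pair the arrays, and this pairing was read from the same data. Alternatives were the replicate number as a block, other normalizations, probe set choices, variance models, array weights, fits on fewer groups and each array left out.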

Additional observations from a re-analysis of the deposited data

How the results depend on the processing

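Between the ligands 0 genes of the 38 passed under any alternative (limma), and 27 to 32 lay below 0. Not every alternative tested all 38 genes: with dim genes removed 34 were tested, so lower counts can reflect fewer genes. The 16 genes lower with Shh at an unadjusted p under 0.05 were 10 after another quantile normalization and 3 to 21 with an array left out.

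For Shh against Vehicle the count past the threshold, 0, became 1 (another quantile normalization), 2 (arrays centred), 2 (dim genes removed), 3 (averaged probe sets), 1 (less specific probe sets removed), 2 (trended, robust variance), 5 (array weights), 2 (fitting only these groups) and 0 to 2 (an array left out), while the 13 lower genes unadjusted were 6 to 21. For Ihh against Vehicle it was 1 with array weights and 0 with any array left out. For both ligands it was 1 with averaged probe sets, 1 with a trended variance, 5 with array weights and 0 to 1 with an array left out. Fitting only the groups compared does not apply to both ligands, which use all arrays. The cause of these changes was not tested.

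With the replicate number as a block, 3 of the 38 passed for Shh against Vehicle (Ret, Tubb3 and Ncam1) and 2 for both ligands (Ret and Ncam1). The calls of Tac1, Shh against Vehicle, and Tac1, both ligands against Vehicle, ended (adjusted p = 0.0545 and 0.0534). Of the 3 same-numbered pairs, r was over 0.1 in 0 for Shh and Ihh (-0.297 to -0.0824), in 1 for Shh and Vehicle (-0.158 to 0.141) and in 3 for Ihh and Vehicle (0.226 to 0.543). On the Ihh and Vehicle arrays alone, a setting chosen after seeing the data, the block left 0 of the 38 past the threshold.

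Among the genes followed, directions turned, always short of the threshold, with averaged probe sets (Ednrb 0.085 and Gfra1 0.013 for Shh against Vehicle, Hand2 -0.148 for Ihh, Mapt -0.033 for both), without less specific probe sets (Ncam1 -0.242 between the ligands, Mapt -0.012 for Ihh and -0.043 for both) and with array weights (Chat 0.023 for Ihh). With an array left out, 31 genes were followed between the ligands and for Shh against Vehicle, and 15 for Ihh and for both ligands. Of these, the values that crossed 0 were, between the ligands, Ncam1 (-0.029 to 0.110), Syt1 (-0.031 to 0.110) and Ptch1 (-0.295 to 0.022). For Shh against Vehicle they were Mapt (-0.394 to 0.013) and Nefm (-0.455 to 0.056). For Ihh they were Chat (-0.191 to 0.117), Slc18a3 (-0.241 to 0.118), Cartpt (-0.234 to 0.032), Hand2 (-0.047 to 0.079) and Uchl1 (-0.027 to 0.103). For both ligands they were Mapt (-0.044 to 0.160), Hand2 (-0.094 to 0.010), Fabp7 (-0.031 to 0.082), Gdnf (-0.070 to 0.102) and Ednrb (-0.027 to 0.071).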
